A study of Mus musculus with 12 samples.

Results

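The genes described here are 38 genes that encode scaffold, signalling and cell adhesion proteins of the postsynaptic side of excitatory synapses, or close relatives of those proteins. They were taken by symbol from a table of 29454 genes measured by RNA sequencing in mouse hippocampus. All 38 were present, each on 1 line of the table, and all 38 passed the filter on low values that left 16503 genes for testing. The table holds 12 libraries of ribosome-depleted, stranded total RNA. The 3 WT libraries came from wild-type pups. The 3 CAMK libraries came from littermates with the CaMKIIα-tTA transgene, in which the CaMKIIα promoter of forebrain excitatory neurons drives the tetracycline transactivator. The 6 CX3CL1-ct libraries came from littermates with that driver and the Tg-CX3CL1-ct transgene, for the C-terminal part of the membrane-bound chemokine CX3CL1. Only CX3CL1-ct against CAMK thus compares pups that all carry the driver. All groups have the strain label C57/BL6, from a line backcrossed for 6 generations. The sample labels give postnatal day 4, whereas the design text of the series gives postnatal day 0. Whether each library stands for its own animal is not in the labels, and the p-values below thus cover only the spread among these libraries, which may be technical.

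At an excitatory synapse, a dense protein layer lies beneath the receptors of the receiving neuron. Dlg proteins bind receptors and adhesion molecules at the membrane, Dlgap proteins link them to Shank proteins, and Shank and Homer proteins form a deeper mesh that reaches the actin of the dendritic spine. Neuroligins and the leucine-rich-repeat proteins of the Lrrtm, Lrrc4 and Lrfn families span the membrane and bind partners on the transmitting neuron. In the hippocampus these synapses form in large numbers during the first weeks after birth.

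The libraries of each group differed from one another in ways that the labels do not describe. Xist, the RNA of the inactive X chromosome, was at 6.38, 113 and 74.1 FPKM (fragments per unit of transcript length, scaled to the sequenced total) in WT 1, 2 and 3. Its level was 0.169, 107 and 65.5 FPKM in CAMK 1, 2 and 3, 96.3 in CX3CL1-ct 5 and 0.140 to 8.49 in the other 5 CX3CL1-ct libraries. The Y-linked gene Ddx3y was at 13.2, 1.32 and 7.10 FPKM in WT, at 18.1, 0.743 and 7.34 in CAMK, at 1.82 in CX3CL1-ct 5 and at 17.0 to 20.1 in the other CX3CL1-ct libraries. Xist and Ddx3y were thus both well above 0 in WT 3 and CAMK 3, and in WT 1 and CX3CL1-ct 6 Ddx3y was high with Xist at 6.38 and 8.49 FPKM. The summed level of 10 striatum markers was 220 to 299 FPKM in WT 2 and WT 3 and 207 in CX3CL1-ct 5, against 64.0 to 82.1 in the other 9 libraries, and none of these markers was at 0. CX3CL1-ct 5 also had the lowest sum of hippocampal neuron markers, 213 FPKM against 383 to 684 elsewhere. CX3CL1-ct 1, 2 and 3 lay closer together than other libraries: the spread of their log2 differences was 0.0717 to 0.0974, against 0.1 to 0.255 for other pairs within groups. Without counts it could not be tested whether these 3 differed by more than sampling noise. Cx3cl1 was at 38.6 to 42.4 FPKM in WT, 34.7 to 41.6 in CAMK and 33.5 to 48.4 in CX3CL1-ct, and these values cannot separate the transgene from the endogenous gene.

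All 38 genes were expressed in all 12 libraries, and as a set they were expressed at higher levels than most genes tested. The mean over the 12 libraries was at least 10 FPKM for 33 of 38 members (86.8%, against 43.3% of the genes tested) and at least 50 FPKM for 8 (21.1%, against 7.63%). Levels per length ran from 5.18 FPKM for Synpo to 94.8 FPKM for Agap2.

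Among the Dlg scaffolds, Dlg4, which encodes PSD-95, and Dlg2, which encodes PSD-93, were the most abundant. Their 12-library means were 69.7 and 63.9 FPKM, and their ranges overlapped. Dlg3, which encodes SAP102, followed at 25.4 FPKM and Dlg1, which encodes SAP97, at 15.7, and neither overlapped with its neighbour in the order. Of the Dlgap linkers, Dlgap4 led at 54.5 FPKM, ahead of Dlgap1 at 38.3 and Dlgap3 at 28.5. Each of these ranges overlapped with the next, and Dlgap2 was separate at 7.74. The 3 Shank genes, whose products join the upper and deeper scaffold layers, overlapped throughout, with means of 19.2 FPKM for Shank2, 14.2 for Shank3 and 11.6 for Shank1. Homer1, whose long isoforms tie Shank proteins to metabotropic glutamate receptors, stood at 45.8 FPKM, above Homer2 at 17.2 and Homer3 at 5.83 without overlap.

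Among the adhesion genes the neuroligins were near one another, at 39.5 FPKM for Nlgn1, found mainly at excitatory synapses, 35.6 for Nlgn2, found mainly at inhibitory synapses, and 32.3 for Nlgn3, found at both. Lrrc4b, whose product NGL-3 binds receptor tyrosine phosphatases of the transmitting neuron, was the most abundant of its family at 91.7 FPKM, with Lrrc4 lowest at 18.0. Lrfn5 led its family at 40.8 FPKM, above the overlapping Lrfn1 at 16.5 and Lrfn2 at 11.7. The Lrrtm genes, whose products bind neurexins or heparan sulfate proteoglycans, ran from 24.9 FPKM for Lrrtm1 through overlapping values of 19.6 for Lrrtm4 and 19.5 for Lrrtm2 to 9.82 for Lrrtm3.

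Enzymes and actin regulators held both the highest and the lowest member. Agap2, a regulator of Arf GTPases, averaged 94.8 FPKM, and Kalrn, a regulator of spine shape, 61.8. The 3 Iqsec genes, which encode activators of Arf6, were lower and did not overlap with one another: Iqsec1 at 18.8, Iqsec3 at 12.3 and Iqsec2 at 8.47 FPKM. Ppp1r9b, which encodes the actin-binding spinophilin, was at 72.4 FPKM, well above Baiap2 at 20.3 and Synpo, the gene of the spine apparatus protein synaptopodin, at 5.18. Of the other scaffolds, Anks1b was at 81.1 FPKM, and Begain at 22.7 and Cnksr2 at 21.8 overlapped. The plot of levels by gene and library shows each of these values.

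**Figure D1:**
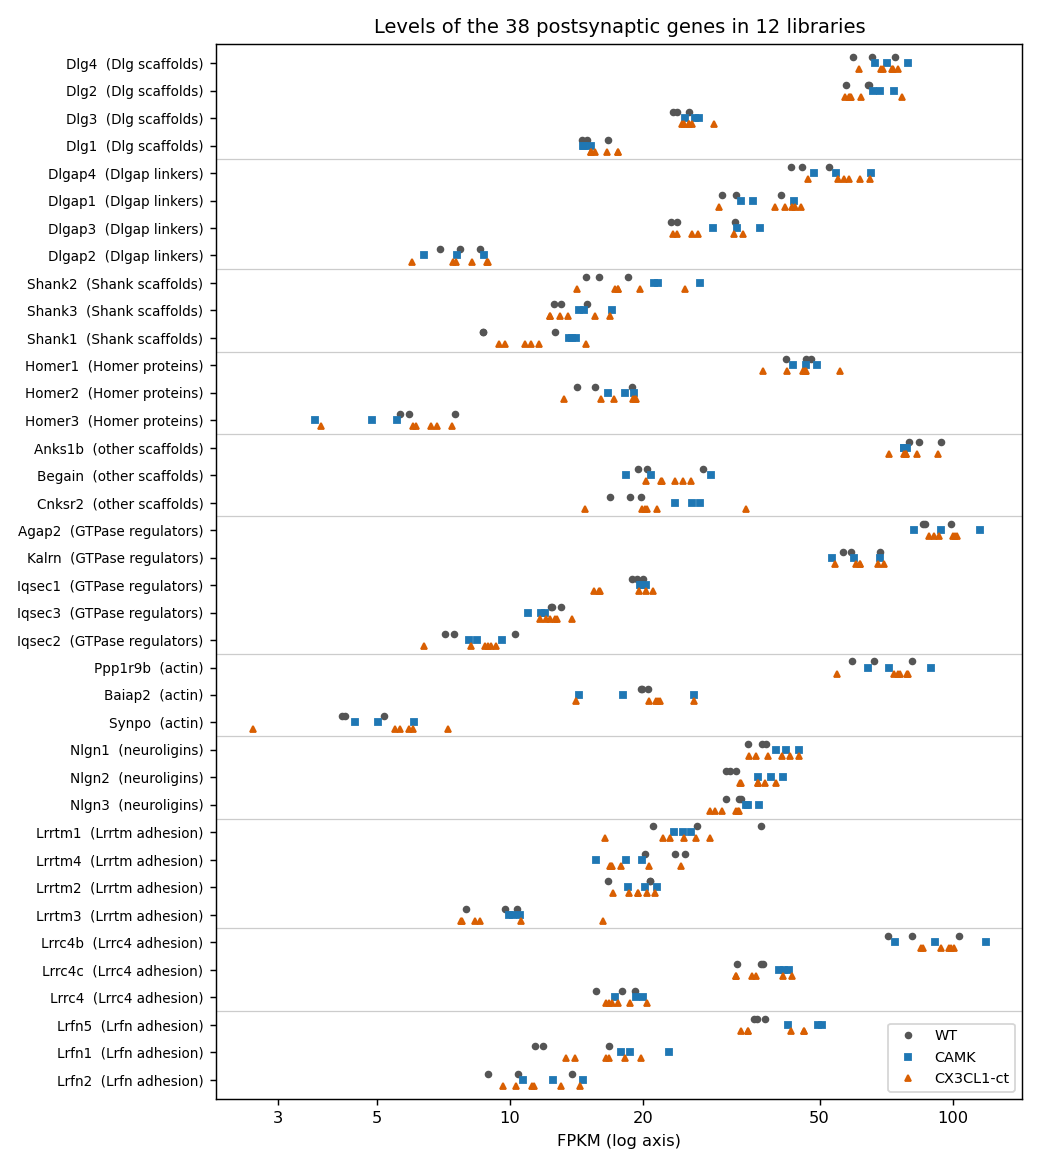
FPKM of each of the 38 genes (rows, grouped by role) in 12 libraries on a log axis, with circles for WT, squares for CAMK and triangles for CX3CL1-ct. The symbols of the 3 groups lie among one another for most genes, and Dlg4, at 69.7 FPKM on average, lies far from Dlg1, at 15.7, in every group.

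The regions just upstream of these genes were read from RefSeq promoter windows of the GRCm38.p6 build, each from 250 bases before to 50 bases after a start. Of the 38 genes 30 had a window, 54 in all. Median GC content was 60.2% in the member windows and 52.7% in all 32851 windows, and the median number of CpG dinucleotides was 14 against 7. All windows together cover 27025 genes without a filter on expression or gene type. The members, all expressed, are thus set beside an unlike background here. The GC box GGGCGG was found on either strand in 25 of 54 member windows (46.3%), against 35.7% of all windows. The TATA box letters TATAAA were found in 5 (9.26%, against 13.6%), and the cAMP response element TGACGTCA in 0 (against 1.79%). A match describes the letters in a window and is not evidence of binding. The 250 upstream bases are printed for 4 genes that return in the comparisons below, 5′ to 3′ on the gene's strand, with matches to these motifs on either strand in capitals. The first 3 belong to genes with higher means in CAMK than in WT and the last to a gene with a lower mean. The Nlgn2 sequence (chr11:69837785-69838034, minus strand) holds 3 GC boxes and 18 CpG. The Lrfn5 sequence (chr12:61522917-61523166, plus strand) holds 27 CpG and no match. The Cnksr2 sequence (chrX:158043281-158043530, minus strand, upstream of one of its 2 starts) holds 4 GC boxes and 39 CpG. The Lrrtm4 sequence (chr6:80018627-80018876, plus strand, upstream of one of its 2 starts) holds 3 CpG and 2 matches to TATAAA on the opposite strand. The 250 bases upstream of its other start, not printed, hold 8 CpG and no match. The last bases of the Lrfn5 and Cnksr2 sequences lie in the first exon of the gene in GENCODE.
Nlgn2: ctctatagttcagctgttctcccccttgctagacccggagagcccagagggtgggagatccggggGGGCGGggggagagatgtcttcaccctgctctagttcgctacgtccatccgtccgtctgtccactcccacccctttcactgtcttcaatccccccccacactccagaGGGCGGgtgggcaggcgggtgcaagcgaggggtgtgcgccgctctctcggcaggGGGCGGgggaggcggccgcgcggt
Lrfn5: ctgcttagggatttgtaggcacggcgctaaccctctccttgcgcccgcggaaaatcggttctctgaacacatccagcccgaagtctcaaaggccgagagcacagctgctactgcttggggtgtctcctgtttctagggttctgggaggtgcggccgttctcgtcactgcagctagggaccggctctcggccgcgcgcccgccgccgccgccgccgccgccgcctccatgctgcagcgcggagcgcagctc
Cnksr2: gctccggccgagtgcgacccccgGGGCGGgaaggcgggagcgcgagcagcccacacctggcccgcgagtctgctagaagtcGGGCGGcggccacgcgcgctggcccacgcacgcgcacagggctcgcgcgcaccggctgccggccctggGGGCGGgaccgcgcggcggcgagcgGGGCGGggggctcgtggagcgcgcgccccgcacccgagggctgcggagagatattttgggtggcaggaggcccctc
Lrrtm4: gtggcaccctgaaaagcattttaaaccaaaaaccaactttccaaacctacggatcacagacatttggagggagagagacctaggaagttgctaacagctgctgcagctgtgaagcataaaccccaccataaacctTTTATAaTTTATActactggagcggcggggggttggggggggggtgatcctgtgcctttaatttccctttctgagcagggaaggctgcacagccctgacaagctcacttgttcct

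CX3CL1-ct was first compared with CAMK, which asks what the transgene adds in pups that all carry the driver. Of the 38 members, 0 were called higher and 0 lower at an adjusted p under 0.05 (limma, adjusted over all 16503 genes), where 10 genes in all were called (0.0606%). At an unadjusted p under 0.05, 0 members were higher and 3 lower, against 5.33% and 1.04% of all genes. Mean differences were above 0 for 13 members and below 0 for 25, with a median log2 difference of -0.05, while 63.2% of all genes were above 0 and their median was 0.04. Marker lists differed here too. Progenitor and dividing cell markers had a higher mean in CX3CL1-ct for 6 of 6 genes (median 0.29, sums of 53.6 to 81.1 FPKM in CX3CL1-ct and 49.0 to 61.8 in CAMK), and meninges markers for 6 of 6 (0.51, 42.0 to 87.4 and 38.7 to 45.2). Thalamus markers had a lower mean for 7 of 7 (-0.24, 40.2 to 111 and 39.5 to 102), and general neuronal markers for 7 of 8 (-0.13, 1711 to 2165 and 1866 to 2227). Synapse maturation markers had one for 6 of 7 (-0.07, 448 to 654 and 518 to 683). Of these markers, Gbx2 of the thalamus was at 0, in CAMK 1. Their part in the members' differences was not tested. In bulk tissue, a lower value from fewer cells of a type and one from less RNA per cell cannot be told apart.

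Nlgn3 had the smallest p of the members in this comparison. Its product is a neuroligin that pairs with neurexins at both excitatory and inhibitory synapses. Its level was 34.2, 36.5 and 34.5 FPKM in the 3 CAMK libraries, and 28.2 (lowest), 31.2 (median) and 32.9 (highest) FPKM in CX3CL1-ct. All 6 CX3CL1-ct values lay below all 3 CAMK values, which held for no other member and for 0.527% of all genes. The log2 difference was -0.18 ± 0.06 (SE), with an adjusted p of 0.725 by limma. CX3CL1-ct 1, 2 and 3 were the 3 lowest libraries for this gene.

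Lrfn5, whose product SALM5 binds receptor tyrosine phosphatases across the cleft, was at 42.5, 49.6 and 50.7 FPKM in CAMK. In CX3CL1-ct it was at 33.1 (lowest), 38.8 (median) and 46.1 (highest) FPKM. The 6 libraries fell apart: CX3CL1-ct 1, 2 and 3 were at 33.1 to 34.5 FPKM, below every CAMK library, while CX3CL1-ct 4, 5 and 6 were at 43.1 to 46.1, within the CAMK range. Between the groups the log2 difference came to -0.27 ± 0.12 (SE, limma adjusted p = 0.773). With CX3CL1-ct 1 to 3 averaged and counted as 1 library it was -0.17.

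Shank2, a scaffold of the deeper layer, was at 26.8, 21.1 and 21.6 FPKM in CAMK and at 14.2 (lowest), 17.6 (median) and 24.9 (highest) in CX3CL1-ct. Of the 6 values, 5 lay below the CAMK range and CX3CL1-ct 6 lay within it. The log2 difference was -0.32 ± 0.14 (SE, limma adjusted p = 0.775). For Shank1 it was -0.29 ± 0.14, for Lrfn1 -0.26 ± 0.14 and for Cnksr2 -0.25 ± 0.18, all with overlapping groups. At the other end, Homer3 had the largest positive value, 0.32 ± 0.17, and Dlg4, Dlg3, Agap2 and Lrrc4b lay within 0.05 of 0 with SEs of 0.06 to 0.14. The median of the 38 differences was 0.0005 without CX3CL1-ct 5, -0.01 without CAMK 1 and -0.11 without CAMK 2.

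CX3CL1-ct was also compared with WT, in which both the driver and the transgene differ. Again 0 members were called in either direction, where 75 genes in all were called (0.454%). At an unadjusted p under 0.05, 2 members were higher and 1 lower, against 8.8% and 3.49% of all genes. Differences were above 0 for 29 of 38 members, against 62.7% of all genes, with a median of 0.06 against 0.04. The members' median was -0.02 without WT 2, WT 3 and CX3CL1-ct 5, the libraries with high striatum markers, -0.002 after quantile normalization and -0.04 with Xist as a covariate. Of the marker lists, 10 of 10 striatum markers had a lower mean in CX3CL1-ct than in WT (median -0.96, sums of 64.6 to 207 and 64.0 to 299 FPKM). Of 7 neocortex markers 7 had a higher mean (0.61, 43.2 to 151 and 32.3 to 69.0), as did 6 of 6 meninges markers (0.84, 42.0 to 87.4 and 27.1 to 36.6), of which 3 were called. None of these markers was at 0. Choroid plexus markers had a lower mean for 5 of 5 genes (median -0.70), and hippocampal neuron markers for 6 of 9 tested (-0.26). GABAergic interneuron markers had one for 5 of 7 (-0.29) and synapse maturation markers for 4 of 7 (-0.21). Endothelium markers had a higher mean for 4 of 4 (0.22). So did thalamus markers for 6 of 7 (0.32), of which Gbx2 was at 0 in WT 1. The part of these lists in the members' differences was not tested.

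Nlgn2, the neuroligin of inhibitory synapses, was at 31.4, 32.4 and 30.8 FPKM in WT. In CX3CL1-ct it was at 33.0 (lowest), 36.4 (median) and 39.8 (highest). It was the 1 member whose groups did not overlap here, as was the case for 4.67% of all genes in this direction. CX3CL1-ct exceeded WT by 0.19 ± 0.07 on the log2 scale (SE, limma adjusted p = 0.28).

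Dlgap4, a linker between the Dlg and Shank layers, was at 52.4, 43.1 and 45.6 FPKM in WT and at 47.0 (lowest), 57.6 (median) and 65.0 (highest) in CX3CL1-ct. Only CX3CL1-ct 5 lay within the WT range. On the log2 scale CX3CL1-ct exceeded WT by 0.28 ± 0.11 (SE, limma adjusted p = 0.345), and it was 0.17 without WT 2, WT 3 and CX3CL1-ct 5. Lrrtm4, which binds heparan sulfate proteoglycans and is enriched at synapses of dentate granule cells, was at 20.2, 24.9 and 23.5 FPKM in WT. In CX3CL1-ct it was at 16.8 (lowest), 17.4 (median) and 24.3 (highest), with CX3CL1-ct 5 and 6 inside the WT range and the other 4 below it. The log2 difference was -0.27 ± 0.12 (SE, limma adjusted p = 0.397), and -0.17 without WT 2, WT 3 and CX3CL1-ct 5.

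CAMK was compared with WT, in which only the driver differs. The members' means were higher in CAMK for 28 of 38 genes, with a median log2 difference of 0.12, where 50.5% of all genes were higher and their median was 0.002. Of the 38, 0 were called in either direction and 59 genes in all were called (0.358%). At an unadjusted p under 0.05, 6 members were higher and 1 lower, against 6.6% and 5.79% of all genes. Groups of 3 did not overlap for 10 members that were higher and 4 that were lower, against 9.22% and 8.8% of all genes. The 10 were Nlgn1, Nlgn2, Nlgn3, Lrfn1, Lrfn5, Lrrc4c, Shank1, Shank2, Cnksr2 and Dlg2. The 4 were Lrrtm4, Homer3, Iqsec3 and Anks1b. Without WT 2, WT 3 and CX3CL1-ct 5, which leaves WT 1 as the only wild-type library and assumes that it varies like the other groups, the median difference was 0.006.

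Nlgn2 had the smallest p of the members. It was at 41.3, 36.3 and 38.9 FPKM in CAMK, and the 31.4, 32.4 and 30.8 FPKM of WT given above were all lower. CAMK exceeded WT by 0.29 ± 0.08 on the log2 scale (SE, limma adjusted p = 0.137), and 0.30 without WT 2, WT 3 and CX3CL1-ct 5. Same-numbered CAMK and WT libraries deviated together, so the replicate number was also fitted as a block. Xist was lowest in library 1 and highest in library 2 of both groups, so a pairing and the differences that run with Xist cannot be told apart in this block. With that block 5 members were called higher, where 309 genes in all were (1.87%), and 0 lower, where 181 were (1.1%). These 5 were Nlgn2 (limma adjusted p = 0.0454), Lrfn5 (0.0262), Shank2 (0.0312), Cnksr2 (0.0338) and Lrfn1 (0.0374). That fit also takes its spread from CX3CL1-ct 1, 2 and 3, which lay closer together than other libraries. With the block and only the 6 CAMK and WT libraries, 2 of the 5 were called, Cnksr2 (limma adjusted p = 0.0452) and Shank2 (0.0460), where 71 genes were called higher (0.43%) and 41 lower (0.248%).

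Lrfn1, which encodes the PSD-95-binding adhesion protein SALM2, was at 22.8, 17.8 and 18.7 FPKM in CAMK and at 16.7, 11.4 and 11.8 in WT. The 3 CAMK values were above the 3 WT values, and library 1 was the highest of each group. The log2 difference was 0.55 ± 0.16 (SE, limma adjusted p = 0.19), the largest among the members. It was 0.22 without WT 2, WT 3 and CX3CL1-ct 5.

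Shank2, at 26.8, 21.1 and 21.6 FPKM in CAMK, was at 18.4, 14.9 and 15.8 in WT. The groups did not overlap, and here too library 1 was the highest of each. On the log2 scale CAMK exceeded WT by 0.47 ± 0.16 (SE, limma adjusted p = 0.262), and 0.31 without WT 2, WT 3 and CX3CL1-ct 5. Shank1 was at 13.6, 14.1 and 13.8 FPKM in CAMK and at 12.6, 8.70 and 8.68 in WT. Its CAMK libraries were nearly equal, whereas WT 1 lay near them and WT 2 and WT 3 well below. The log2 difference of 0.45 ± 0.16 (SE, limma adjusted p = 0.266) was 0.12 without WT 2, WT 3 and CX3CL1-ct 5.

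Lrfn5 was at 35.5, 36.2 and 37.7 FPKM in WT, all below the 42.5 FPKM of the lowest CAMK library. Its log2 difference was 0.37 ± 0.13 (SE, limma adjusted p = 0.282), and 0.41 without WT 2, WT 3 and CX3CL1-ct 5. Cnksr2, an X-linked scaffold of Ras signalling at the synapse, was at 26.8, 23.5 and 25.7 FPKM in CAMK and at 19.8, 16.8 and 18.7 in WT. Its log2 difference was 0.44 ± 0.21 (SE, limma adjusted p = 0.423), with groups that did not overlap. Its CX3CL1-ct libraries ran from 14.8 to 34.0 FPKM, wider than both other groups together.

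Lrrtm4 differed in the other direction, with 15.6, 19.8 and 18.3 FPKM in CAMK against 20.2, 24.9 and 23.5 in WT. The lowest WT value was just above the highest CAMK value. For Lrrtm4 the log2 difference was -0.34 ± 0.14 (SE, limma adjusted p = 0.353), and -0.17 without WT 2, WT 3 and CX3CL1-ct 5. With Xist as a covariate, a fit added after the data were seen, Lrrtm4 was called lower (limma adjusted p = 0.0482, where 0.927% of genes were) and Lrfn1 higher (0.0394, where 1.2% were). Homer3, the least abundant Homer scaffold, was at 5.55, 3.64 and 4.88 FPKM in CAMK and at 7.51, 5.93 and 5.65 in WT, a log2 difference of -0.38 ± 0.20 (SE). The 2 other genes without overlap on the low side had small differences, -0.11 ± 0.07 for Iqsec3 and -0.13 ± 0.09 for Anks1b.

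Marker lists of cell types and neighbouring tissue also differed between CAMK and WT. Of 10 striatum markers 10 had a lower mean in CAMK, with a median log2 difference of -1.08, and their sums were 75.9 to 82.1 FPKM in CAMK and 64.0 to 299 in WT. Of 7 neocortex markers 6 had a higher mean, with a median of 1.01, and sums of 79.7 to 128 FPKM in CAMK and 32.3 to 69.0 in WT. General neuronal markers summed to 1866 to 2227 FPKM in CAMK and 1478 to 1904 in WT, and 7 of 8 had a higher mean. Progenitor and dividing cell markers summed to 49.0 to 61.8 FPKM in CAMK and 64.2 to 78.8 in WT, and 6 of 6 had a lower mean, 1 of them called. Of 9 hippocampal neuron markers tested, 5 had a lower mean, 1 of them called, and 4 a higher one (median -0.30). All 10 listed summed to 461 to 589 FPKM in CAMK and 383 to 606 in WT. Of all genes 0.358% were called. Of 6 astrocyte markers 5 had a lower mean (-0.19, 321 to 337 and 354 to 434). Of 7 thalamus markers 7 had a higher mean (median 0.64, sums of 39.5 to 102 FPKM in CAMK and 34.3 to 44.2 in WT), and of 6 meninges markers 6 (0.39, 38.7 to 45.2 and 27.1 to 36.6). Of 5 choroid plexus markers 5 had a lower mean (-0.79, 98.7 to 893 and 303 to 2311), and of 7 markers of GABAergic interneurons 7 (-0.22, 270.1 to 283 and 300.1 to 364). Of 7 synapse maturation markers 4 had a higher mean (0.07, 518 to 683 and 496 to 727). The thalamus marker Gbx2 was at 0 in WT 1 and CAMK 1, and no other marker of these lists was at 0. Their part in the differences of the postsynaptic genes was not tested. Since CX3CL1-ct was compared with both groups, and CAMK and WT with it and with each other, the 3 comparisons share libraries.

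Shank2, Lrfn5, Dlgap4 and Ppp1r9b, each the most abundant gene of its family, are described elsewhere, and the values of other abundant members follow. Dlg4, the main scaffold of the mature excitatory synapse, was at 73.9, 59.6 and 65.6 FPKM in WT, at 79.2, 66.6 and 71.1 in CAMK, and at 61.3 (lowest), 71.2 (median) and 75.3 (highest) in CX3CL1-ct. The 3 groups overlapped, and the spread within a group was wider than the distance between the group means of 66.4, 72.3 and 70.1. Homer1 was at 42.0, 47.9 and 46.5 FPKM in WT, at 49.3, 43.5 and 46.7 in CAMK, and at 37.2 (lowest), 46.1 (median) and 55.7 (highest) in CX3CL1-ct. Its group means of 45.5 ± 3.07, 46.5 ± 2.89 and 45.7 ± 6.09 FPKM (SD, n = 3, 3 and 6) were nearly equal, with the CX3CL1-ct libraries spread on both sides.

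Nlgn1 was at 37.0, 34.5 and 37.8 FPKM in WT, at 39.9, 42.1 and 45.0 in CAMK, and at 34.6 (lowest), 39.7 (median) and 45.0 (highest) in CX3CL1-ct. All CAMK values of this neuroligin lay above all WT values, a log2 difference of 0.21 ± 0.09 (SE, limma adjusted p = 0.397), and CX3CL1-ct overlapped with both groups. Lrrc4b averaged 85.1 ± 16.2, 94.6 ± 22.5 and 93.5 ± 6.97 FPKM in WT, CAMK and CX3CL1-ct (SD, n = 3, 3 and 6). Its libraries differed widely within groups, from 71.4 to 103 in WT and from 74.1 to 119 in CAMK. Agap2 averaged 90.3 ± 7.31, 96.9 ± 17.1 and 96.0 ± 5.98 FPKM, and Anks1b, whose product AIDA-1 moves between synapse and nucleus, 85.8 ± 7.33, 78.0 ± 0.729 and 80.2 ± 7.05 (SD, same n). CAMK was the most uniform group for Anks1b and the most variable for Agap2. Kalrn averaged 61.3 ± 6.21, 60.6 ± 7.58 and 62.6 ± 5.63 FPKM (SD, same n), and its log2 differences were all within 0.05 of 0, with SEs of 0.10 to 0.11.

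**Figure D2:**
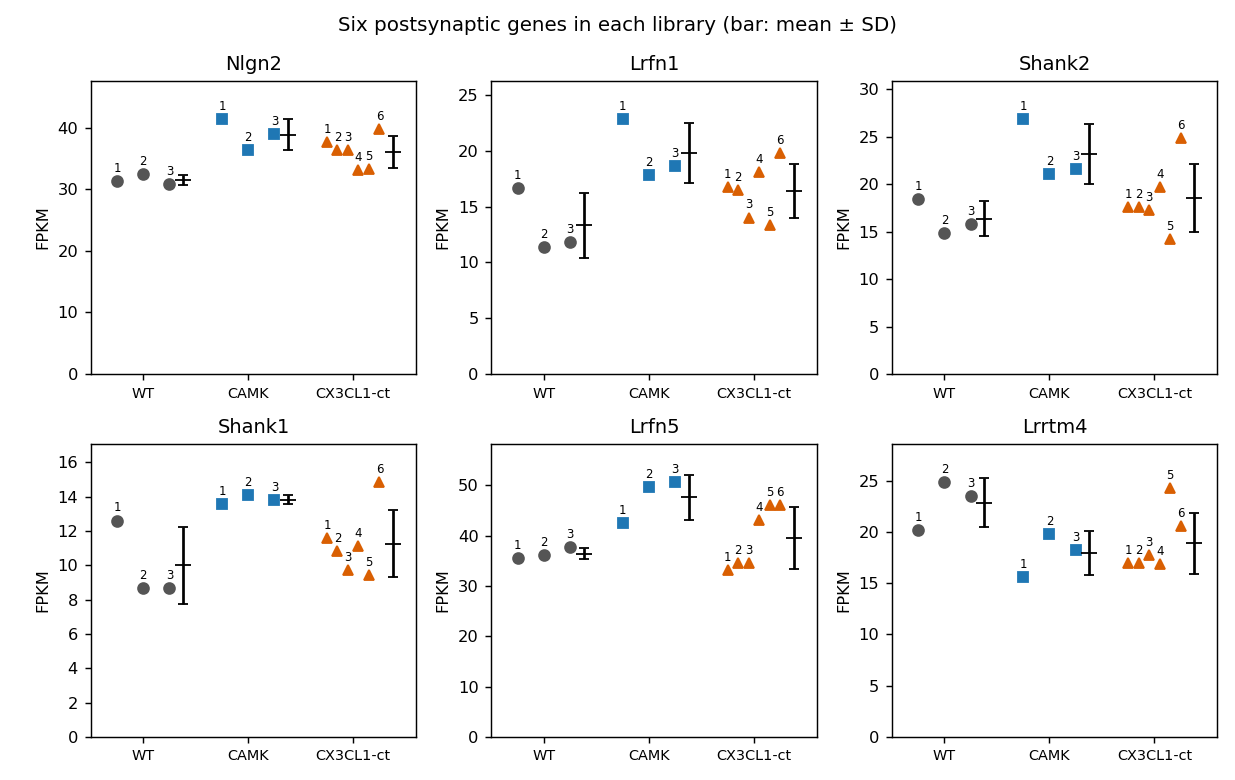
FPKM of 6 genes in each library (points), with the group mean ± SD beside the points, for 3 WT, 3 CAMK and 6 CX3CL1-ct libraries, each axis starting at 0. CAMK and WT do not overlap for any of the 6, for example Nlgn2 at 36.3 to 41.3 against 30.8 to 32.4 FPKM, and CX3CL1-ct spans much of the range between and beyond them.

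**Figure D3:**
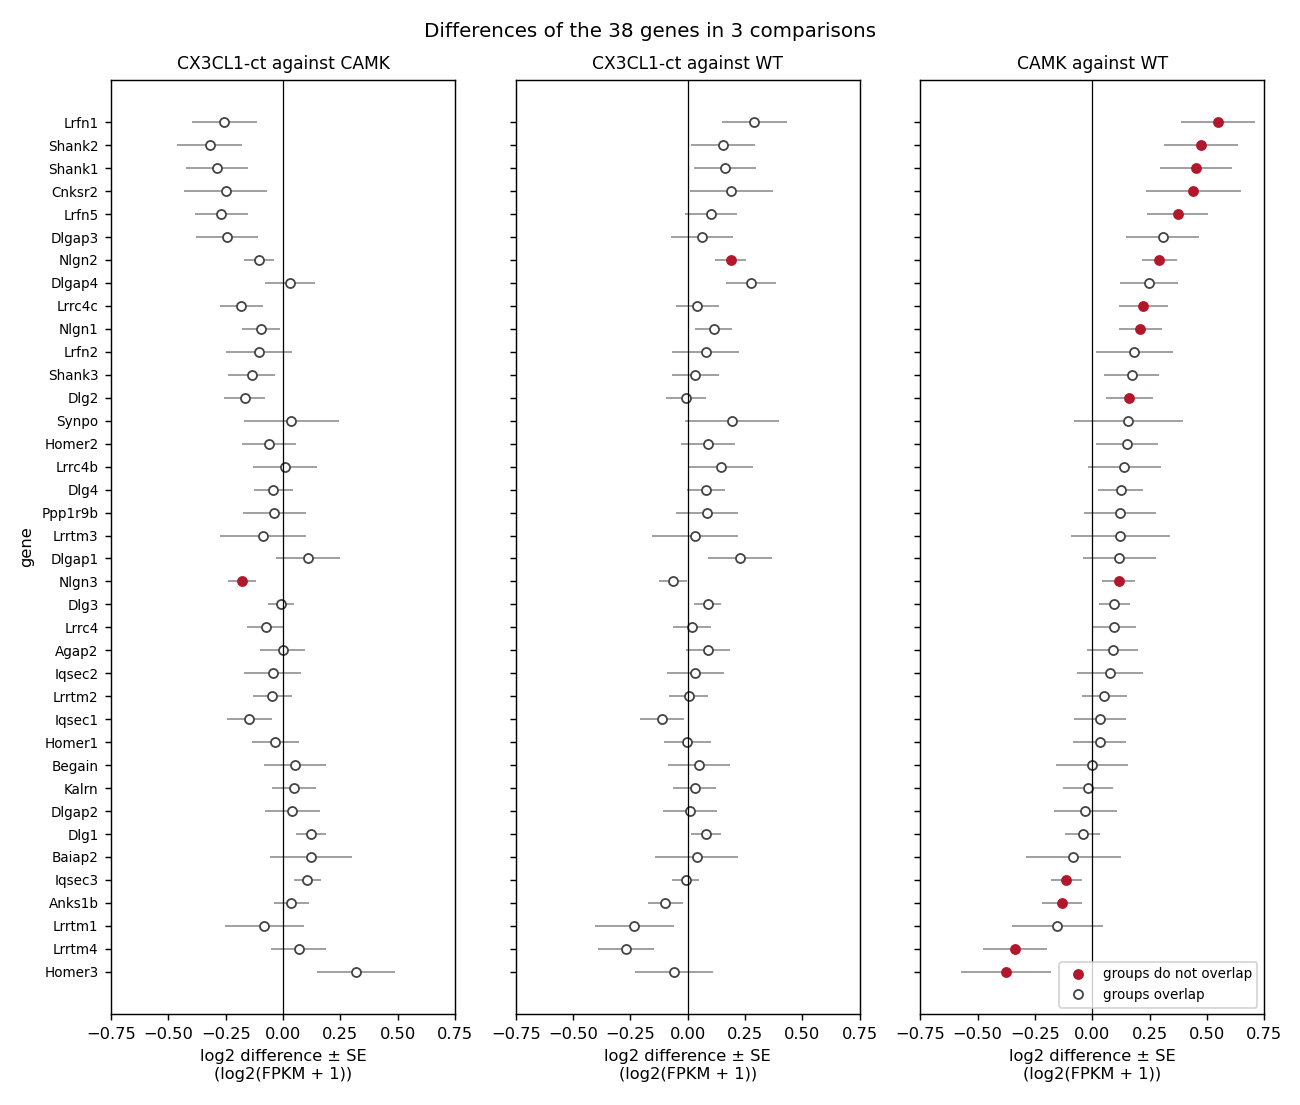
Log2 difference ± SE of each of the 38 genes in the 3 comparisons, on the log2(FPKM + 1) scale, with filled red points where the groups do not overlap. CX3CL1-ct against CAMK and against WT have 1 filled point each, Nlgn3 and Nlgn2, and CAMK against WT has 14.

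Many of these genes also varied together between libraries of the same group. In 21 of 38 members (55.3%, against 19.2% of all genes tested) the level was lower in WT 2 than in WT 1, lower in CAMK 2 than in CAMK 1, and lower in CX3CL1-ct 5 than in the other 5 of its group. WT 2, CAMK 2 and CX3CL1-ct 5 are the libraries with the highest Xist in each group. The reverse held for 4 members (10.5%, against 18.8%). The library sets were picked for their Xist level after the data were seen, and these counts are descriptions without a test.

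The 21 genes held all 4 Dlgap linkers, Dlg3, Dlg4, Shank2, Homer2 and Homer3 among the scaffolds, and the actin genes Baiap2, Synpo and Ppp1r9b. They also held Kalrn, Agap2 and Iqsec2 among the GTPase regulators, Cnksr2 and Anks1b, and the adhesion genes Lrrtm1, Lrrc4, Lrfn1 and Lrfn2. Their median ratio was 0.806 for WT 2 to WT 1, 0.780 for CAMK 2 to CAMK 1 and 0.799 for CX3CL1-ct 5 to the median of the other 5. The direction of these ratios, and of those for the reverse order below, was fixed by how the genes were picked. Over all 38 members the medians were 0.863, 0.877 and 0.879. The 4 genes with the reverse order were Lrrtm2, Lrrtm3, Lrrtm4 and Iqsec3, with median ratios of 1.24, 1.12 and 1.27. The Lrrtm family was thus split, with Lrrtm1 in the first set and the other 3 in the second.

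Ppp1r9b shows the first order. Spinophilin was at 80.7, 59.3 and 66.3 FPKM in WT, at 89.1, 64.3 and 71.6 in CAMK, and at 54.8 (lowest), 75.5 (median) and 79.4 (highest) in CX3CL1-ct. Library 1 was the highest and library 2 the lowest in both WT and CAMK, and CX3CL1-ct 5 lay well under the next library of its group, at 73.4 FPKM. Dlgap1, the linker also known as GKAP, was at 41.0, 30.2 and 32.4 FPKM in WT, at 43.8, 33.3 and 35.4 in CAMK, and at 29.7 (lowest), 42.6 (median) and 45.4 (highest) in CX3CL1-ct. As for Ppp1r9b, library 1 was the highest and library 2 the lowest of WT and CAMK, and CX3CL1-ct 5 was the lowest of its group. Lrrtm1, an adhesion gene of excitatory synapses, was at 36.9, 21.001 and 26.5 FPKM in WT, and CX3CL1-ct 5 had the lowest value of all libraries, 16.4.

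Lrrtm3, whose product binds neurexins, shows the reverse order. It was at 7.95, 10.4 and 9.75 FPKM in WT, at 10.2, 10.5 and 9.92 in CAMK, and at 7.76 (lowest), 8.44 (median) and 16.3 (highest) in CX3CL1-ct. CX3CL1-ct 5, at 16.3 FPKM, was the highest of all 12 libraries. For Lrrtm4 the highest library was number 2 in WT and CAMK and number 5 in CX3CL1-ct.

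Within CX3CL1-ct, library 5 was below the other 5 for 23 of 38 members (60.5%, against 26.8% of all genes) and above them for 5 (13.2%, against 29.8%). CX3CL1-ct 6 was the highest for 19 of 38 (against 21.3%). CAMK 1 was the highest of CAMK for 27 of 38 (71.1%, against 39.6%) and CAMK 2 the lowest for 28 (73.7%, against 44.2%). Nlgn1, Nlgn3, Iqsec1 and Lrfn5 were lower in each of CX3CL1-ct 1, 2 and 3 than in each of CX3CL1-ct 4, 5 and 6 (10.5% of members, against 8.51% of all genes). Of these, Iqsec1 was at 15.4 to 16.0 FPKM in the first 3 libraries and at 19.5 to 20.99 in the last 3.

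A fit with the groups and the Xist level as terms, added after the data were seen, gave slopes for each gene. It rests on the Xist level that also picked the libraries above and is no independent support. Per 100 FPKM of Xist, 19 of 38 members had a slope called below 0 and 3 a slope called above 0, where 14.4% of all genes were called below 0 and 14% above. The members' median slope was -0.25 on the log2 scale and that of all genes -0.003. The slope of Ppp1r9b was -0.45 ± 0.04 (SE, limma adjusted p = 0.00019), that of Dlg4 -0.25 ± 0.04 (0.00186) and that of Lrrtm4 0.36 ± 0.06 (0.00224). The other 2 above 0 were Lrrtm2 and Lrrtm3. Of the 21 genes, Dlg3, Lrrc4, Cnksr2 and Anks1b had no called slope, and Lrrc4b and Begain had one below 0 without being among the 21. The striatum markers were high in the high-Xist libraries of WT and in CX3CL1-ct 5. Within CAMK 1, 2 and 3 they summed to 82.1, 75.9 and 82.1 FPKM, while Xist was at 0.169, 107 and 65.5. Thalamus markers there summed to 39.5, 102 and 81.0 FPKM and choroid plexus markers to 98.7, 893 and 665. In WT 1, 2 and 3 these lists ran the other way, at 44.2, 34.3 and 41.1 and at 2311, 303 and 1137. In CX3CL1-ct 5 they were at 111 and 570 FPKM, against 40.2 to 46.4 and 150 to 620 in the rest of the group. Other lists followed the order of the 21 genes in all groups. In WT 1 and 2, CAMK 1 and 2 and CX3CL1-ct 5, hippocampal neuron markers summed to 606, 383, 589, 461 and 213 FPKM. Synapse maturation markers summed to 727, 496, 683, 518 and 448. For both, CX3CL1-ct 5 was the lowest of its group. Sums of general neuronal, neocortex, endothelium and meninges markers had the same order, and those of GABAergic interneurons the reverse. Within CAMK, 29 of 38 members (against 52.5% of all genes) were lower in CAMK 2 than in CAMK 1. The part of Xist, the Y-linked genes and the marker lists in the members' levels was not tested separately. Of the X-linked members, Dlg3, Cnksr2 and Iqsec2 were among the 21 genes with the first order, and Nlgn3 was not.

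**Figure D4:**
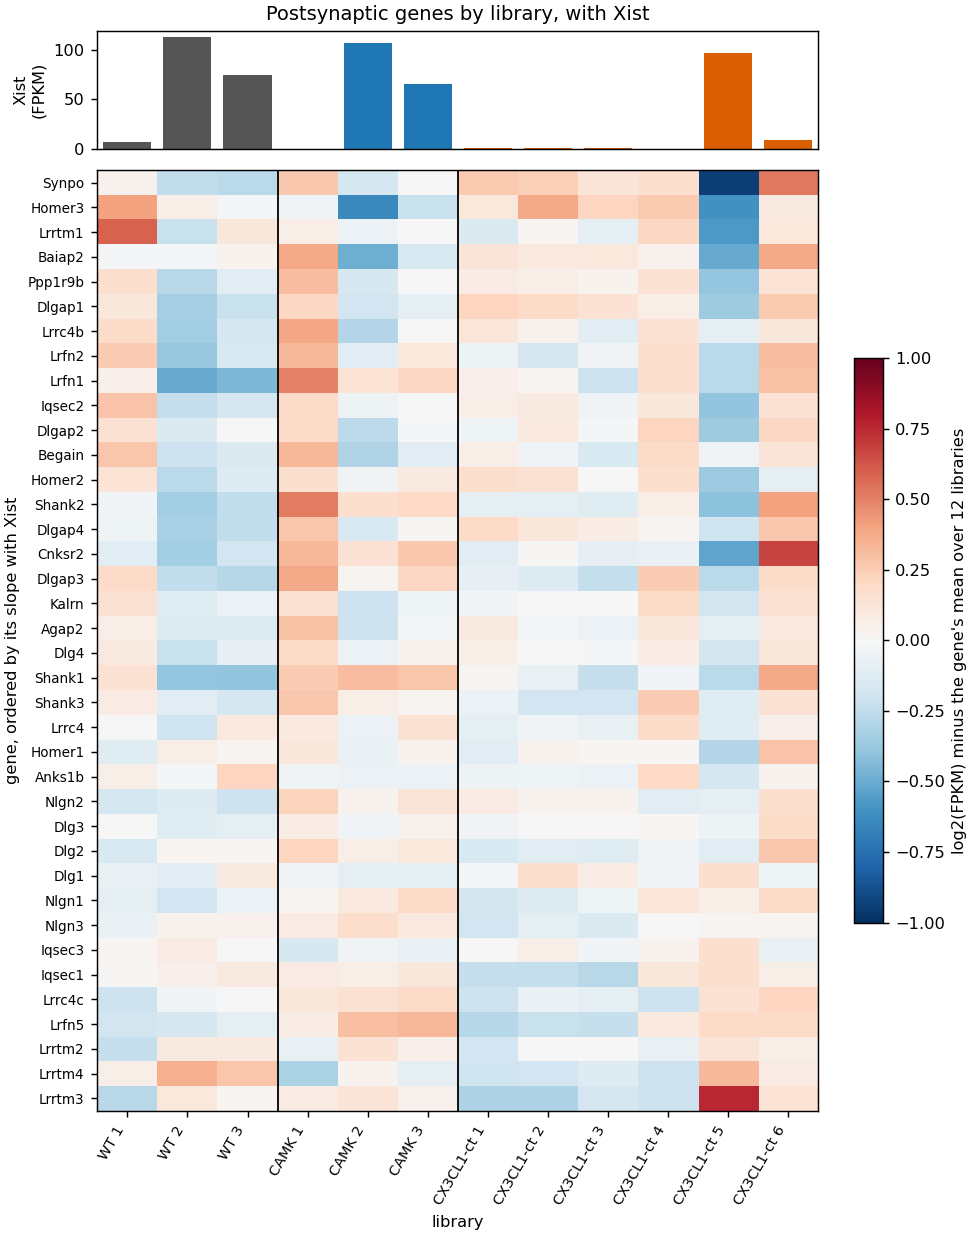
Heat map of the 38 genes (rows, ordered by their slope with Xist) in 12 libraries (columns), as log2(FPKM) minus the gene's mean over all libraries with colours limited to ±1, under bars of the Xist level in FPKM. WT 2, CAMK 2 and CX3CL1-ct 5, with Xist at 113, 107 and 96.3 FPKM, are lower (bluer) than WT 1, CAMK 1 and the other CX3CL1-ct libraries for most genes in the upper rows, and higher (redder) for Lrrtm3 and Lrrtm4 at the bottom.

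In the GENCODE M21 annotation of build mm10 all 38 members are protein-coding, and they span long stretches of genome. The median span was 103120 nt, against 25930 nt for the 13032 protein-coding genes tested, and 8 of 38 (21.1%, against 1.62%) spanned at least 500000 nt. Dlg2 is the longest (chr7:90476672-92449247, plus strand, 1972576 nt). Nlgn2 (chr11:69823122-69837784, minus strand), Lrfn5 (chr12:61523150-61858342, plus strand), Shank2 (chr7:144001928-144424494, plus strand) and Lrrtm4 (chr6:80018877-80810143, plus strand) do not lie inside another protein-coding gene. Of the exon sequence of Lrrtm4, 25.1% is shared with Gm4409 on the opposite strand, a gene model listed at 0 in 11 of the 12 libraries. Lrrtm1 lies inside Ctnna2, Lrrtm2 inside Ctnna1, Lrrtm3 inside Ctnna3, Lrrc4 inside Snd1 and Lrfn1 inside Samd4b, each on the strand opposite to its host, and whether counting used strand is not stated. In CX3CL1-ct 5 Ctnna2 had its highest value, 82.8 FPKM, while Lrrtm1 had its lowest, 16.4. Ctnna3 stayed at 0.232 to 0.432 FPKM in all libraries, where Lrrtm3 ran from 7.76 to 16.3. Of the exon sequence of Nlgn3, 41.2% is shared with Gm21986 on the same strand, a gene model at 0.311 to 1.35 FPKM. Of that of Homer3, 25.4% is shared with Ddx49 on the opposite strand, at 8.17 to 11.8 FPKM, so values of Homer3 at 3.64 to 7.51 FPKM are uncertain if strand was not used.

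Other genes of the same pathway were summarised from lists of partners across the cleft, other postsynaptic organisers, and other postsynaptic density scaffolds and enzymes. The first list also holds Mdga1, Mdga2, Clstn1, Clstn2 and Clstn3, so not all of its genes belong to the transmitting side. No gene of the 3 lists was called in any comparison. In CAMK against WT, 15 of 17 genes of the first list had a higher mean (median log2 difference 0.20), as did 16 of 22 organisers (0.12) and 17 of 25 scaffolds and enzymes (0.07). In CX3CL1-ct against CAMK the counts were 3 of 17, 7 of 22 and 12 of 25, with medians of -0.06, -0.06 and -0.02. In CX3CL1-ct against WT they were 13 of 17, 16 of 22 and 17 of 25, with medians of 0.18, 0.04 and 0.06. The corresponding medians of all genes are those given above.

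Cbln1, a secreted bridge between neurexins and postsynaptic receptors best known from cerebellum, was at 13.0, 8.79 and 10.1 FPKM in WT and at 20.7, 17.9 and 19.1 in CAMK. In CX3CL1-ct it was at 13.6 (lowest), 19.0 (median) and 23.5 (highest), so both transgenic groups lay above all WT libraries. On the log2 scale the differences were 0.81 ± 0.19 for CAMK against WT and 0.75 ± 0.16 for CX3CL1-ct against WT, with limma adjusted p of 0.0909 and 0.0784. Ptprd, a receptor tyrosine phosphatase on the transmitting side that binds several of the adhesion proteins above, averaged 60.8 ± 2.49 FPKM (SD, n = 3) in CAMK and 41.7 ± 4.78 (SD, n = 3) in WT. Its log2 difference was 0.54 ± 0.13 (SE). Nrxn2, a neurexin, averaged 83.8 ± 8.52 and 60.5 ± 10.5 FPKM (SD, n = 3 each), a difference of 0.47 ± 0.12. Ctnnd2, the δ-catenin of dendritic spines, averaged 49.7 ± 1.57 and 36.0 ± 2.95 FPKM (SD, n = 3 each), a difference of 0.46 ± 0.10. None of these passed the threshold. In CX3CL1-ct against CAMK the smallest p in the lists were those of Lhfpl4 (-0.19 ± 0.07), an organiser of inhibitory synapses, Mdga2 (-0.37 ± 0.14), which blocks neuroligin binding, Ntng1 (-0.51 ± 0.24), the ligand of Lrrc4c, and Grip1 (0.12 ± 0.06), a scaffold of AMPA receptors. Ntng1 was at 8.63, 19.2 and 16.3 FPKM in CAMK 1, 2 and 3, where thalamus markers summed to 39.5, 102 and 81.0. It was at 5.83 to 13.3 FPKM in CX3CL1-ct, and the part of the thalamus markers was not tested. Grip1 (0.23 ± 0.06), Ctnnd2 (0.30 ± 0.09) and Flrt2 (0.24 ± 0.07), an adhesion protein that binds latrophilins, followed Cbln1 in CX3CL1-ct against WT. Of 4 genes of the inhibitory postsynapse, 1 had a higher mean in CAMK than in WT, 2 in CX3CL1-ct than in CAMK and 0 in CX3CL1-ct than in WT.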

How the data were processed

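RNA was sequenced from hippocampus in 12 libraries, grouped by the sample titles. The authors deposited FPKM values, made, per the submitters' processing notes, with TopHat, Bowtie, Cufflinks and Cuffdiff on build mm10. Their versions, the scaling between libraries and the use of strand in counting are not given in the sources used here. Summed over genes, a library held 552481 to 659362 FPKM, and 15318 to 15861 genes reached 1 FPKM. Depth is unknown, since no counts were used here.

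Genes with at least 1 FPKM in at least 3 libraries were kept (16503 of 29454). limma 3.58.1 in R 4.3.3 (eBayes with trend) fitted the 3 groups to log2(FPKM + 1) over all 12 libraries, which understates the change of low genes. Two-sided p-values were adjusted (Benjamini-Hochberg) across the 16503 genes, and 0.05 was the threshold. A called gene is one past that threshold, and groups do not overlap where every value of one lies above every value of the other. The steps were tested on simulated data. Python 3.11.15 with pandas 2.3.3 and numpy 2.4.6 was used for the rest.

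The members, lists, alternatives and tests were chosen with earlier results of these data known. The text may name any member, and describes in depth the 3 with the smallest p per comparison and the most abundant of each family. Other genes of the pathway are named where called, or among the 4 with the smallest p per comparison. The members given in the account of variation within groups, and Shank1, Lrfn5, Cnksr2, Lrrtm4 and Homer3 in CAMK against WT, were picked after their values were seen.

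Replicate numbers 1 to 3 occur in all groups, and numbers 4, 5 and 6 only in CX3CL1-ct. Deviations of same-numbered CAMK and WT libraries from their group means correlated over genes by 0.236, 0.163 and 0.100, which meets the rule for pairs (every value over 0.1), so the block is given beside those results. The pairing comes from these values, and no label states it. For CX3CL1-ct the rule was not met. Alternatives were another pseudocount (0.1), no filter or one at 5 FPKM, median-of-ratios scaling, quantile normalization, only the groups compared, a robust prior, the replicate block and each library left out. Coordinates come from GENCODE M21 (mm10), and promoter sequences from RefSeq (GRCm38.p6). Protein sequences were not analysed here.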

Additional observations from a re-analysis of the deposited data

Results flagged for a closer look

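In groups of 6 libraries, 1 value was tested against the rest of its group for each of the 38 genes in CX3CL1-ct, by the gap to the nearest value over the range (Dixon's criterion at the 95% level). For independent values, chance alone picks about 1 in 20 groups. Here 7 of 38 genes had such a value, all in 2 libraries. The share over all genes tested was not computed, so this count cannot be read as particular to these genes. CX3CL1-ct 5 was below the other libraries of its group for 26.8% of all genes and above them for 29.8%. CX3CL1-ct 6 was far above the others for Dlg2 at 76.6 FPKM (gap over range 0.740), Dlg3 at 28.8 FPKM (0.711) and Cnksr2 at 34.0 FPKM (0.653). CX3CL1-ct 5 was far below the others for Ppp1r9b at 54.8 FPKM (0.759), Dlgap1 at 29.7 FPKM (0.632) and Homer3 at 3.75 FPKM (0.631), and far above them for Lrrtm3 at 16.3 FPKM (0.670). CX3CL1-ct 5 is the library of that group with high Xist and high striatum markers, and their part in these values was not tested. The genes share their libraries, so the 7 values are not independent of one another.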

How the results depend on the processing

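Under all alternatives together, the members' differences kept their sign in 691 of 760 values for CX3CL1-ct against CAMK, 656 of 760 for CX3CL1-ct against WT and 618 of 646 for CAMK against WT. Without a replicate block or Xist in the fit, 0 of 1900 values were called, and the smallest limma adjusted p was 0.081. The replicate block raised the members called higher in CAMK against WT from 0 to 5, and to 2 with only the CAMK and WT libraries. With the block, 2 members were called lower in CX3CL1-ct against CAMK, Iqsec1 and Lrfn5, and 2 in CX3CL1-ct against WT, Iqsec1 and Lrrtm4. The numbers did not meet the rule for pairs there. Numbers 4, 5 and 6 occur only in CX3CL1-ct, so these 2 comparisons then rest on CX3CL1-ct 1, 2 and 3 alone. For Lrfn5 the log2 difference from CAMK was -0.47 with the block, against -0.27 in the main fit. The block gave 309 genes higher and 181 lower in CAMK against WT, 119 and 52 in CX3CL1-ct against CAMK, 364 and 176 in CX3CL1-ct against WT, and 71 higher in CAMK against WT with those 6 libraries alone. Xist as a covariate gave 1 member higher and 1 lower in CAMK against WT, and 198 and 153 genes, and 136 and 85 genes in CX3CL1-ct against WT. Without WT 2, WT 3 and CX3CL1-ct 5, the members' median in CAMK against WT was 0.00556 (0.12 with all libraries), with 5 genes higher and 5 lower, and CX3CL1-ct against WT had 1 higher and 11 lower. With CX3CL1-ct 1 to 3 averaged, CX3CL1-ct against CAMK had 1 gene higher and CX3CL1-ct against WT 2 higher and 26 lower. These 4 settings, the block on the 6 libraries among them, were chosen after seeing the data. Of the genes called in all, CAMK against WT had 14 higher and 45 lower. These became 27 higher with only the 2 groups, 102 lower without a filter and 20 lower with the stricter filter. CX3CL1-ct against WT had 33 higher and 42 lower, which became 113 lower without a filter, 13 higher and 17 lower with the stricter one, 21 higher with median-of-ratios scaling and 4 higher with only the 2 groups. CX3CL1-ct against CAMK had 2 higher and 8 lower, and 1 higher with the stricter filter or the robust prior. Leaving out 1 library at a time gave 0 members called in every comparison. It gave 2 to 13 genes higher and 19 to 53 lower for CAMK against WT, 1 to 3 and 8 to 9 for CX3CL1-ct against CAMK, and 1 to 99 and 25 to 76 for CX3CL1-ct against WT, with 1 higher without WT 2 or WT 3 and 99 without CX3CL1-ct 5. The members' median ran from 0.06 (without WT 2) to 0.19 (without CAMK 2) for CAMK against WT, from -0.11 to 0.0005 for CX3CL1-ct against CAMK, and from 0.02 (without CX3CL1-ct 6) to 0.11 (without WT 1) for CX3CL1-ct against WT. The cause of these shifts was not tested. The depth behind each FPKM is unknown, so no counting error could be given, and differences of the size of the SEs above could not be resolved with 3 libraries a group.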
